A study of Homo sapiens with 6 samples.

Results

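The 34 genes described here encode the enzymes, carriers and the regulator that make fatty acids and build them into glycerolipids. They were chosen by symbol and role, with earlier results of these data known, and all 34 were found among the 20263 genes of the deposited table. By role, 9 act in synthesis, 5 in desaturation, 10 in elongation, 4 in activation and 6 in glycerolipid assembly. RNA sequencing of total RNA was done on 6 libraries from cells labelled LNCaP, an established hormone-dependent line from human prostate cancer. Of these, 3 came from cells with a LINC01518 overexpression vector and 3 from cells with an empty vector control. LINC01518 is a long non-coding RNA. Group names follow the sample labels, although the design text of the series speaks of transfection with a vector for MEG3, a different long non-coding RNA. The level of the insert was not analysed here. Nothing states that the replicates were separate cultures, so p-values here measure a library-to-library spread that may be technical only.

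Cells make fatty acids in the cytosol from citrate that leaves the mitochondria. Citrate is split to acetyl-CoA, acetyl-CoA is carboxylated to malonyl-CoA, and fatty acid synthase joins these units into palmitate at the cost of NADPH. In the endoplasmic reticulum, elongases lengthen the chains and desaturases add double bonds. Acyl-CoA synthetases activate free fatty acids by linking them to coenzyme A, and acyltransferases with a phosphatase then build phosphatidic acid, diacylglycerol and triglyceride. The transcription factor SREBP-1, encoded by SREBF1, activates many genes of this pathway, and androgen is known to raise lipogenic genes in prostate cancer cells.

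The libraries held between 38161544 and 42553688 counts, and mitochondrial genes took 4.84 to 5.16% of counts in overexpression libraries and 4.66 to 5.13% in empty vector libraries. A count of 0 in a library allows up to 3 counts, or 0.0703 to 0.0794 CPM (counts scaled to library size), for counting error only. Of 12 luminal prostate markers, 6 had 0 counts in all 6 libraries, namely KLK2, KLK3, KLK4, TMPRSS2, FOLH1 and TRPM8. HOXB13, a transcription factor gene of the prostate, was detected at 8.22, 8.26 and 8.34 CPM in the overexpression libraries and at 6.83, 7.25 and 6.63 CPM in the empty vector libraries, and the summed level of the 12 markers was 39.3 to 44 CPM in overexpression libraries and 38.5 to 42.6 CPM in empty vector libraries. The label LNCaP is taken as given by the submitters. With 6 of 12 luminal markers at 0 counts in every library, these values do not establish it. Whether the label is right was not tested.

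Across the 34 genes, overexpression libraries had higher RNA of SLC25A1, ACLY, FASN and SREBF1 in synthesis and of SCD, FADS1 and FADS2 in desaturation, by 1.17 to 1.27 times, while no gene of the elongation cycle passed the test. TECR, of that cycle, was not called at 1.18 times, a size within this range. Roles were not tested against each other. Of the 31 genes with enough counts to be tested, all with at least 18 counts in every library, 9 were called higher and 0 lower by edgeR's quasi-likelihood test with Benjamini-Hochberg adjustment over all genes. Among all 13543 genes tested, 3.57% were called higher and 2.03% lower, 5.60% in all. The called genes were ACLY, FASN, SLC25A1 and SREBF1 (4 of 8 tested in synthesis), SCD, FADS1 and FADS2 (3 of 5 in desaturation), ACSL1 (1 of 4 in activation) and LPIN1 (1 of 6 in glycerolipid assembly). In elongation, 0 of 8 were called, although 2 had an unadjusted p under 0.05, and DESeq2, which called 9.72% of all genes, called 1 higher and 1 lower. At an unadjusted p under 0.05 there were 13 of the 31 genes, against 23.6% of all genes tested.

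The median log2 fold change, overexpression over empty vector, was 0.18 in synthesis, 0.27 in desaturation, -0.065 in elongation, 0.15 in activation and 0.046 in glycerolipid assembly. Over all genes tested it was -0.0035. The log2 fold change was above 0 for 21 of the 31 genes, against 49.2% of all genes tested. All 3 overexpression libraries lay above all 3 empty vector libraries for 13 of the 31 genes, against 15.9% of all genes tested, and below them for 5, against 15.5%. Among the 12 genes with a mean of at least 100 CPM, 6 were called higher (7.40% of all genes at that level), and among the 19 tested genes under it, 3 were (2.79%). The elongation median, below 0 with all 6 libraries, was above 0 without overexpression replicate 2 (0.059) and without empty vector replicate 1 (0.068).

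The called differences were of 1.17 to 1.46 times. FADS1 was the only one of the 9 that was called in each of the 6 fits that left out 1 library, a share of 1.03% among all genes tested. Leaving out any 1 overexpression library left FADS1 alone among the 34 genes, and leaving out empty vector replicate 1, 2 or 3 left 5, 2 or 4 genes called. The deposited TPM (a level per transcript length that sums to the same total in each library) called 0 of them by limma-trend, which called 1.66% of all genes, while 12 had an unadjusted p under 0.05, of which 9 were higher, against 7.60% of all genes. With library size as the only scaling, 346 genes of the table were higher and 382 lower, against 484 and 275 with the TMM scaling used here, and 7 of the 34 were called.

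**Figure D1:**
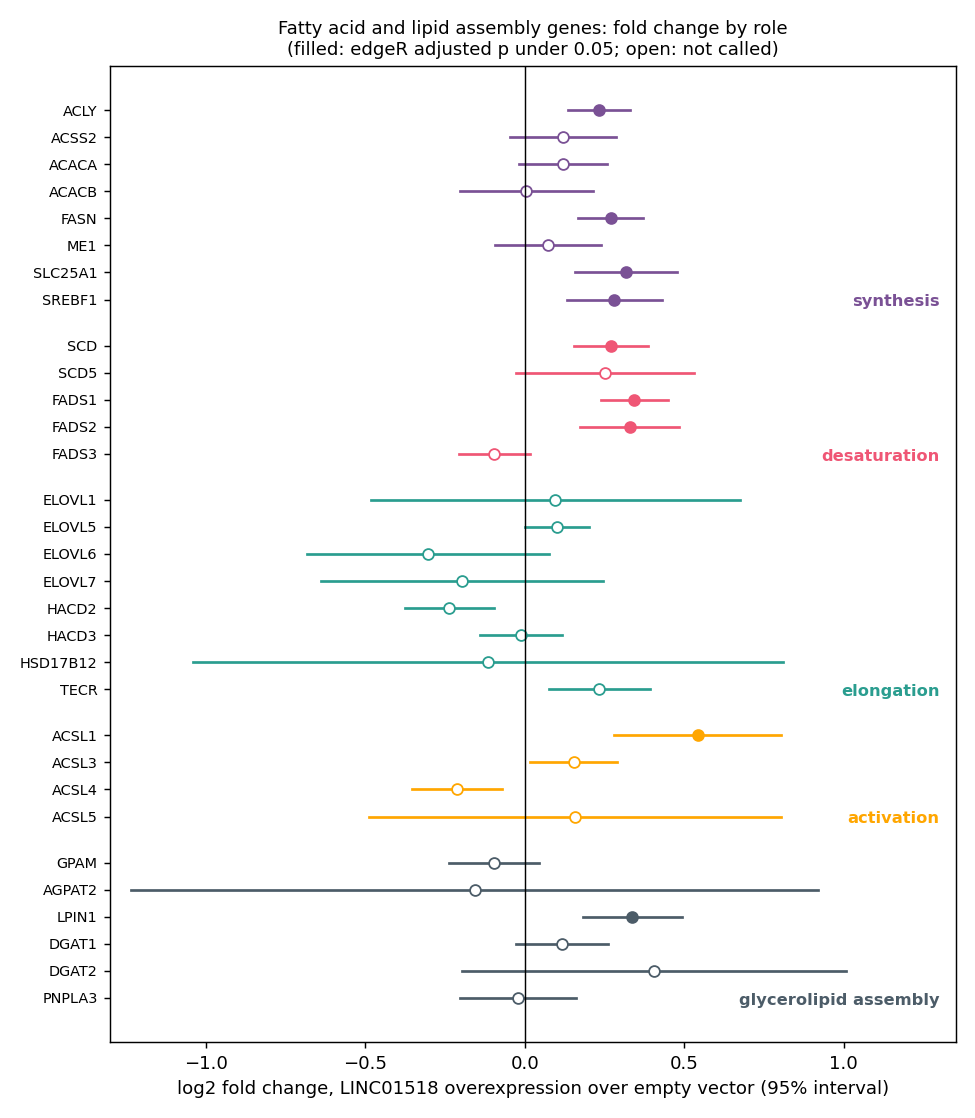
Log2 fold change (horizontal axis, overexpression over empty vector, bars give 95% intervals) of the 31 tested genes, from top to bottom by role, with filled points for the 9 genes called by edgeR. Every synthesis gene has its point right of 0, and the elongation genes lie on both sides with the widest intervals at HSD17B12 and, in glycerolipid assembly, AGPAT2.

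Start site sequences of the 4 called genes that have a single start in the RefSeq promoter table (GRCh38.p14) are shown, since the table lists only 1 window for each. Each runs 5′ to 3′ along the gene's strand, from 250 bases before the transcript start to 50 after it, and capitals mark CCAAT and GGGCGG boxes read on either strand (the reverse letters are ATTGG and CCGCCC). The windows are chr22:19178687-19178986 on the minus strand for SLC25A1, chr17:17836937-17837236 on the minus strand for SREBF1, chr10:100346983-100347282 on the plus strand for SCD and chr11:61816954-61817253 on the minus strand for FADS1.
SLC25A1: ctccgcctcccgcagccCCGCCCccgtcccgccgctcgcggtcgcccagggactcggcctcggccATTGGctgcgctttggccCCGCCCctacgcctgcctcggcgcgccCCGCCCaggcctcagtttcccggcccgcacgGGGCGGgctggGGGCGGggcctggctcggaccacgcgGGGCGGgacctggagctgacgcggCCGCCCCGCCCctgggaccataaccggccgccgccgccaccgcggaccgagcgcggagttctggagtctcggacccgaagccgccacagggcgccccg
SREBF1: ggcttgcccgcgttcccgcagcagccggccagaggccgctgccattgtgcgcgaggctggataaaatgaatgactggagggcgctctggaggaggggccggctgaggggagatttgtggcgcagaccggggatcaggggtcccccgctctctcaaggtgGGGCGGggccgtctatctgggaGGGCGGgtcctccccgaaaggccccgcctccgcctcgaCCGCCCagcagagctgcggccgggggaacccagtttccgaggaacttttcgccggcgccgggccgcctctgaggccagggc
SCD: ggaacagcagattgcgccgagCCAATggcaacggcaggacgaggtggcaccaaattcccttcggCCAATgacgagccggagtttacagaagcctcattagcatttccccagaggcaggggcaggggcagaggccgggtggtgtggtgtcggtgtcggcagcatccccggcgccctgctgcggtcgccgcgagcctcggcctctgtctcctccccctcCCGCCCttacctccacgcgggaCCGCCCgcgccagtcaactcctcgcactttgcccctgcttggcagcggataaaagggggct
FADS1: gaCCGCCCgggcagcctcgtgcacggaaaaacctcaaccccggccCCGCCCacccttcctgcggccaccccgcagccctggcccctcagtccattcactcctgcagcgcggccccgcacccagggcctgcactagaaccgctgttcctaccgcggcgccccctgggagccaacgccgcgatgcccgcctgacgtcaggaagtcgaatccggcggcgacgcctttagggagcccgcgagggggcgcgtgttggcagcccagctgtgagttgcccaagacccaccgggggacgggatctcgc
CCAAT is the box of the factor NF-Y and GGGCGG that of SP1, both of which are known to act beside SREBP at lipogenic promoters. The SCD window held 2 CCAAT boxes at 229 and 186 bases before the start and 2 GGGCGG boxes, whereas SLC25A1 held 1 and 8, SREBF1 0 and 3, and FADS1 0 and 2. RefSeq windows matched 29 of the 34 genes, with 45 windows in all since some genes have several starts, and none was listed for FASN, HSD17B12, DGAT1, DGAT2 and PNPLA3. CCAAT was found in 21 of the 45 windows (46.7%), against 34.7% of the 15623 windows of tested genes, and GGGCGG in 34 (75.6%), against 65.1%. The sterol regulatory element TCACNCCAC, read on both strands, was found in 1 window (2.22%), of ACSL1, against 1.10%, and the E-box CACGTG in 2 (4.44%), of ELOVL5 and ELOVL4, against 9.35%. The 45 windows include those of THRSP, ELOVL2 and ELOVL4, which were not tested. Over all 35093 windows, of tested and untested genes, the shares were 34.6% for CCAAT and 44.9% for GGGCGG. They were 1.13% for the sterol regulatory element and 7.26% for the E-box. Of the 16 windows of the 8 called genes that had any, 6 held CCAAT and 11 held GGGCGG, against the same 34.7% and 65.1%. The sterol regulatory element was in 1 of these 16 windows and the E-box in 0. These matches describe letters in short windows.

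In synthesis, SLC25A1, ACLY, FASN and SREBF1 were higher, and the other genes gave no call. SLC25A1, the mitochondrial carrier that exports citrate (chr22:19175575-19178830, minus strand, GRCh38, GENCODE 29, as for all gene positions below), had 332, 334 and 323 CPM in the overexpression libraries, against 239, 264 and 291 CPM in the empty vector libraries. Its lowest overexpression library lay above its highest empty vector library, and the empty vector libraries were the more spread (log2 fold change 0.32, SE 0.0697, adjusted p = 0.042 by edgeR). ACLY, ATP citrate lyase, which splits citrate to acetyl-CoA (chr17:41866908-41930542, minus strand), had 508, 495 and 477 CPM with overexpression and 419, 425 and 416 CPM with empty vector. The groups did not overlap, and the empty vector libraries lay close together (log2 fold change 0.23, SE 0.0421, adjusted p = 0.0239 by edgeR). FASN, fatty acid synthase (chr17:82078333-82098332, minus strand), had 599.7, 616 and 589 CPM in overexpression libraries and 506, 512 and 479.9 CPM in empty vector libraries. Its libraries fell into separate ranges (log2 fold change 0.27, SE 0.0442, adjusted p = 0.0176 by edgeR), and a correction for GC content and gene length lowered the log2 fold change to 0.18 and ended the call (adjusted p = 0.122).

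SREBF1, which encodes SREBP-1 (chr17:17810399-17837002, minus strand), had 153, 149.8 and 147 CPM with overexpression, against 112, 132 and 127 CPM with empty vector. All overexpression libraries were higher, with empty vector replicate 1 the lowest of the 6 (log2 fold change 0.28, SE 0.0646, adjusted p = 0.0471 by edgeR). It shares 556 exonic bases with RAI1 on the opposite strand, and the strand setting of the counting is not given in the sources used here, so their reads cannot be told apart there; RAI1 had a log2 fold change of -0.14 (adjusted p = 0.817 by edgeR). On the TPM the groups of SREBF1 overlapped. SREBF1 and SLC25A1 lost their calls with upper-quartile scaling and with library size only. Over the 6 fits that left out 1 library, the adjusted p by edgeR ran from 0.0229 to 0.121 for SLC25A1, called only without empty vector replicate 3, and from 0.0642 to 0.139 for SREBF1, called in none. It ran from 0.0497 to 0.0953 for ACLY, called only without empty vector replicate 1, and from 0.0359 to 0.071 for FASN, called without any 1 empty vector library but not without any 1 overexpression library.

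The genes of acetate use, malonyl-CoA and NADPH were not called. ACACA, the cytosolic acetyl-CoA carboxylase that makes malonyl-CoA for synthesis, had 161, 167 and 156 CPM in overexpression libraries and 146, 159.8 and 139 CPM in empty vector libraries. The groups overlapped (log2 fold change 0.12, 95% interval -0.018 to 0.26), and on the deposited TPM the order was the other way, with 57, 48.9 and 41.4 TPM in overexpression libraries and 54.4, 60.4 and 57.7 TPM in empty vector libraries (log2 fold change -0.24). ACACB, the carboxylase at the mitochondrial membrane whose product restrains fatty acid oxidation, had 33.7, 37.4 and 37.3 CPM with overexpression and 35.7, 40.1 and 32.3 CPM with empty vector. These ranges overlapped (log2 fold change 0.0047, interval -0.20 to 0.21), and the sign flipped with upper-quartile scaling and library size only. ACSS2, which makes acetyl-CoA from acetate, had 91.3, 80.1 and 82.3 CPM in overexpression libraries and 78.3, 72.2 and 82.9 CPM in empty vector libraries. ME1, malic enzyme, a source of NADPH, had 41.5, 40.7 and 40.0 CPM with overexpression and 42.3, 36.4 and 37.5 CPM with empty vector. Both overlapped between the groups, with intervals of -0.045 to 0.29 for ACSS2 and -0.094 to 0.24 for ME1 on the log2 scale. THRSP, a lipogenic protein of liver and fat, had 0 to 5 counts per library and was not tested.

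**Figure D2:**
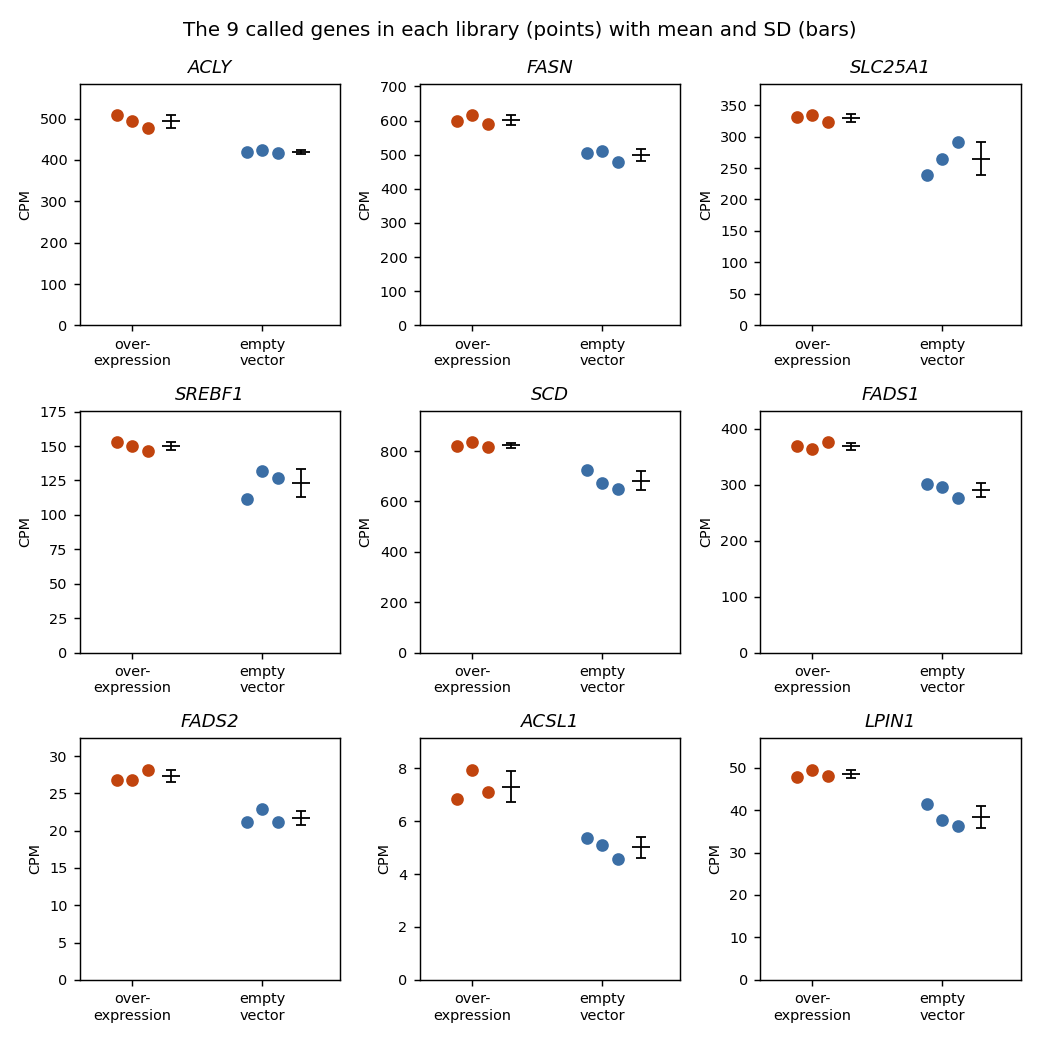
CPM (vertical axes, from 0) of the 9 called genes in each library, with overexpression left of empty vector and the mean and SD of 3 libraries beside the points. In each panel the 3 overexpression points lie above the 3 empty vector points, from ACSL1 at 6.83 to 7.95 CPM with overexpression and 4.57 to 5.35 CPM with empty vector, up to SCD at 814 to 835 CPM with overexpression and 649.7 to 725 CPM with empty vector.

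In desaturation, the main stearoyl-CoA desaturase and both fatty acid desaturases of polyunsaturated chains were higher, whereas FADS3 and SCD5 were not called. SCD, which puts a double bond into stearoyl- and palmitoyl-CoA (chr10:100347124-100364834, plus strand), had 822, 835 and 814 CPM in the overexpression libraries, against 725, 675 and 649.7 CPM in the empty vector libraries. The overexpression libraries lay close together and above all empty vector libraries, at 1.21 times (log2 fold change 0.27, SE 0.0501, adjusted p = 0.0263 by edgeR). FADS1, which carries out the last desaturation on the way to arachidonic acid (chr11:61799625-61829318, minus strand), had 368, 363 and 376 CPM with overexpression and 300.4, 295 and 277 CPM with empty vector. Its groups lay in separate ranges, and it had the smallest p of the 31 tested genes (log2 fold change 0.34, SE 0.046, adjusted p = 0.00977 by edgeR). On the TPM its log2 fold change was smaller, at 0.18, with 223, 230.2 and 201 TPM in overexpression libraries and 205, 194 and 179 TPM in empty vector libraries, where the groups overlapped. FADS2, which desaturates linoleic and alpha-linolenic acid (chr11:61792980-61867354, plus strand), had 26.8, 26.8 and 28.2 CPM in overexpression libraries and 21.1, 22.9 and 21.2 CPM in empty vector libraries. These also did not overlap (log2 fold change 0.33, SE 0.067, adjusted p = 0.0338 by edgeR).

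FADS1 and FADS2 are neighbours whose annotated regions overlap on opposite strands, with 490 exonic bases in common, and FEN1, a DNA repair nuclease gene, lies inside the FADS2 region on its strand with 49 exonic bases shared. Where they overlap, their reads cannot be told apart, and FEN1 itself had a log2 fold change of 0.29 (adjusted p = 0.0308 by edgeR). Both neighbours were far more abundant, with 11161 to 15408 counts per library for FEN1 and 10732 to 15466 for FADS1, against 821 to 1126 for FADS2. How many FADS2 reads came from the shared bases was not tested. The third gene of the cluster, FADS3, which desaturates sphingoid bases, had 96.2, 95.7 and 98.9 CPM with overexpression and 102, 101 and 108 CPM with empty vector. All its overexpression libraries were lower, but it was not called (log2 fold change -0.10, interval -0.21 to 0.015, adjusted p = 0.273 by edgeR). As a share of the summed TPM of FADS1, FADS2 and FADS3, FADS3 took 31.1 ± 1.38% in overexpression libraries and 36.3 ± 1.81% in empty vector libraries (SD, n = 3 each), with per-library ranges of 30.3 to 32.7% with overexpression and 35 to 38.4% with empty vector. FADS1 took 61 ± 1.49% in overexpression libraries and 56.9 ± 1.94% in empty vector libraries (SD, n = 3 each), with ranges of 59.3 to 62.1% with overexpression and 54.8 to 58.5% with empty vector. Neither share overlapped between the groups. SCD5, a second stearoyl-CoA desaturase gene that mice lack, was low at 7.83 to 10.7 CPM over the 6 libraries and not called (log2 fold change 0.25, interval -0.028 to 0.53), and SCD gave 97.9% of the summed TPM of the pair in both groups. When 1 library was left out, the adjusted p of FADS1 by edgeR ran from 0.0184 to 0.0462. That of SCD ran from 0.0184 to 0.0894, with a call only without empty vector replicate 1 or 3, and that of FADS2 from 0.0617 to 0.121, with no call.

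Elongation gave no call by edgeR in either direction, and its fold changes lay on both sides of 0. The cycle runs through condensation by an elongase, reduction by HSD17B12, dehydration by HACD2 or HACD3 and a second reduction by TECR. ELOVL5, the elongase of polyunsaturated chains, had 260.2, 256 and 258 CPM in overexpression libraries and 249, 232 and 241 CPM in empty vector libraries. The overexpression libraries were all higher by a small margin (log2 fold change 0.10, interval -0.00025 to 0.20, adjusted p = 0.212 by edgeR). TECR, the enoyl reductase, had 158, 139 and 146 CPM with overexpression and 125, 117 and 135 CPM with empty vector. Its groups did not overlap (log2 fold change 0.23, interval 0.074 to 0.39, adjusted p = 0.0918 by edgeR, and 0.0435 by DESeq2), and it shares 211 exonic bases with DNAJB1 on the opposite strand. HACD2, a dehydratase, had 104, 102 and 107 CPM in overexpression libraries and 134, 119 and 117 CPM in empty vector libraries. It was lower in all overexpression libraries (log2 fold change -0.24, interval -0.38 to -0.10, adjusted p = 0.0613 by edgeR, and 0.0200 by DESeq2). Its paralog HACD3 had 86, 83.7 and 92.1 CPM with overexpression and 91.9, 85.1 and 87.1 CPM with empty vector, which overlapped (log2 fold change -0.013, interval -0.14 to 0.12). HACD2 took 46.5 ± 1.58% in overexpression libraries and 50.6 ± 1.19% in empty vector libraries of the summed TPM of the 2 dehydratases (SD, n = 3 each), in ranges of 45 to 48.1% with overexpression and 49.6 to 51.9% with empty vector that did not overlap.

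ELOVL6 and ELOVL7 were low, and ELOVL2 and ELOVL4 were at or near 0 counts. ELOVL6, which extends palmitate to stearate, had 3.20 to 3.65 CPM with overexpression and 3.76 to 5.26 CPM with empty vector, and ELOVL7, a further elongase, 2.30 to 3.07 CPM with overexpression and 2.39 to 3.51 CPM with empty vector. Neither was called, with log2 intervals of -0.68 to 0.076 for ELOVL6 and -0.64 to 0.25 for ELOVL7. ELOVL2, an elongase of long polyunsaturated chains, had 0 to 3 counts per library, ELOVL4, that of very long chains, had 0 counts in every library, and neither was tested.

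ELOVL1, HSD17B12 and, in glycerolipid assembly, AGPAT2 differed more between libraries of the same group than between groups. ELOVL1, the elongase of saturated very long chains, had 85.4, 57.8 and 86.9 CPM with overexpression and 79.5, 81.3 and 54.6 CPM with empty vector, so that 1 library of each group was low. HSD17B12, the ketoacyl reductase, had 35.4, 20.5 and 35.6 CPM in overexpression libraries and 43.2, 20.5 and 35.7 CPM in empty vector libraries, and replicate 2 of each group was low. AGPAT2, which adds the acyl chain that makes phosphatidic acid, had 138, 71.5 and 67.1 CPM with overexpression and 119.9, 66.3 and 122 CPM with empty vector, with 2 low libraries in the overexpression group and 1 in the empty vector group. The deposited TPM showed the same libraries low, for example 180.3, 96.3 and 89.7 TPM with overexpression and 166, 90.9 and 161 TPM with empty vector for AGPAT2. Their log2 intervals were wide, at -0.48 to 0.67 for ELOVL1, -1.04 to 0.81 for HSD17B12 and -1.23 to 0.92 for AGPAT2, and the sign of each changed when 1 library was left out. ELOVL1 was at -0.0035 without overexpression replicate 3 and -0.068 without empty vector replicate 3, HSD17B12 at 0.10 without overexpression replicate 2 and 0.12 without empty vector replicate 1, and AGPAT2 at 0.026 without overexpression replicate 3. Of 8789 genes that reached 500 counts in every library, 176 had a highest library at least 1.4 times the lowest in both groups, and 117 of these had it in TPM too. These 3 were the only ones among the 25 of the 34 genes at that depth.

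**Figure D3:**
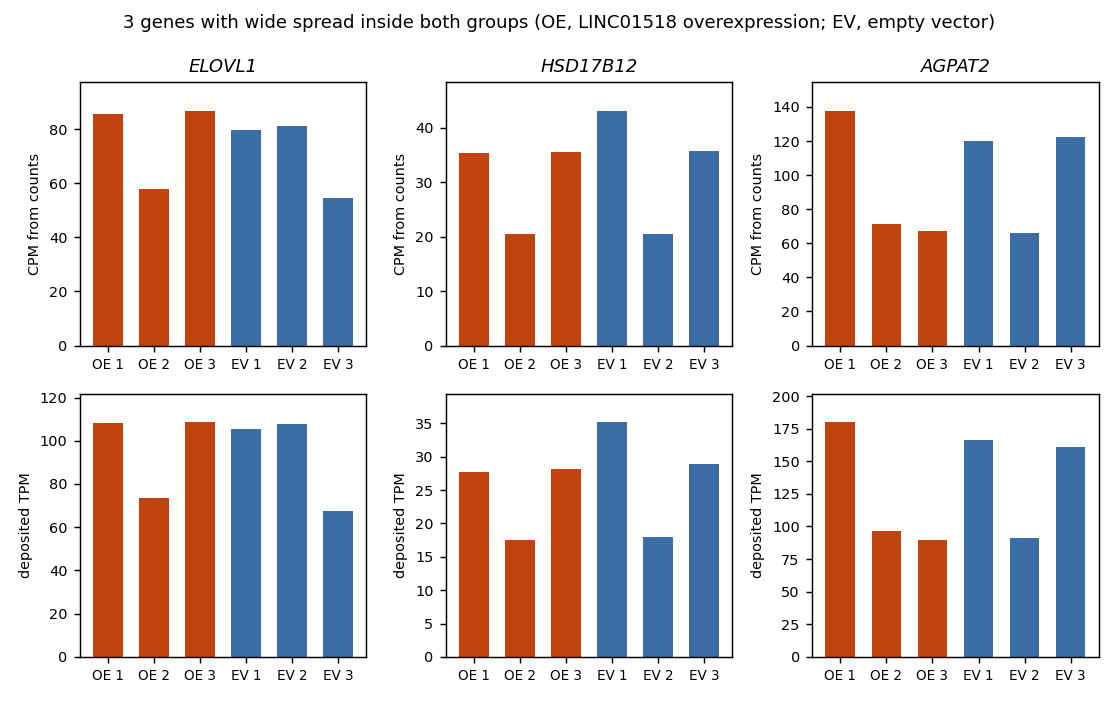
CPM (top row) and deposited TPM (bottom row) of ELOVL1, HSD17B12 and AGPAT2 in each library, with the 3 overexpression libraries (OE) left of the 3 empty vector libraries (EV). The same libraries are low in both units, and each group holds at least 1 low library for each gene.

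In activation, 1 of 4 long-chain acyl-CoA synthetase genes was called. ACSL1 (chr4:184755595-184826818, minus strand), which activates long-chain fatty acids and is the main form of liver and fat, had 6.83, 7.95 and 7.09 CPM in the overexpression libraries, against 5.35, 5.11 and 4.57 CPM in the empty vector libraries. The groups did not overlap and the log2 fold change was the largest of the 9 called genes (log2 fold change 0.54, SE 0.114, adjusted p = 0.0364 by edgeR, 1.46 times). Its level was low, with 177 to 313 counts per library, and it was called in none of the 6 fits without 1 library (adjusted p 0.0648 to 0.114 by edgeR). ACSL3, an isoform of lipid droplets and the most abundant of the 4 in TPM, had 126, 129 and 124 CPM with overexpression and 116, 105 and 120.2 CPM with empty vector. Its overexpression libraries were higher but it was not called (log2 fold change 0.15, interval 0.017 to 0.29, adjusted p = 0.167 by edgeR), and in TPM the difference was -0.0054. ACSL4, which prefers arachidonic acid, had 49.8, 50.9 and 50.9 CPM in overexpression libraries and 62.5, 57.8 and 55.4 CPM in empty vector libraries. It was lower in every overexpression library (log2 fold change -0.21, interval -0.35 to -0.072, adjusted p = 0.0865 by edgeR, and 0.0489 by DESeq2). ACSL5 had at most 0.635 CPM in any library (interval -0.49 to 0.80). Of the summed TPM of the 4 genes, ACSL1 took 5.49 ± 1.09% in overexpression libraries and 3.3 ± 0.425% in empty vector libraries (SD, n = 3 each), in ranges of 4.25 to 6.32% with overexpression and 3.03 to 3.79% with empty vector that did not overlap. ACSL3 took 68.8 ± 0.408% in overexpression libraries and 67 ± 4.65% in empty vector libraries (SD, n = 3 each), in ranges that did.

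In glycerolipid assembly, LPIN1 was higher and the acyltransferases were not called. LPIN1, a phosphatidate phosphatase that yields diacylglycerol (chr2:11677595-11827409, plus strand), had 47.8, 49.6 and 48.1 CPM in the overexpression libraries, against 41.4, 37.7 and 36.2 CPM in the empty vector libraries. The overexpression libraries were close together and all above the empty vector libraries (log2 fold change 0.34, SE 0.0673, adjusted p = 0.0322 by edgeR), and the call held without empty vector replicate 1 only (adjusted p 0.0297 to 0.10 over the 6 fits). GPAM, the mitochondrial glycerol-3-phosphate acyltransferase that opens the pathway, had 29.7, 30.2 and 29.6 CPM with overexpression and 31.2, 33.3 and 31.1 CPM with empty vector. Its overexpression libraries were slightly lower, without a call (log2 fold change -0.10, interval -0.24 to 0.043). DGAT1, which makes triglyceride from diacylglycerol, had 43.1, 42.8 and 43.9 CPM in overexpression libraries and 38.2, 39.2 and 42.4 CPM in empty vector libraries. They did not overlap, by a narrow margin, and DGAT1 was not called (log2 fold change 0.12, interval -0.029 to 0.26). PNPLA3, a lipid droplet protein with lipase and acyltransferase activity, had 23.8, 24.6 and 27 CPM with overexpression and 25.5, 27.1 and 23.9 CPM with empty vector, which overlapped (log2 fold change -0.022, interval -0.20 to 0.16). DGAT2, an unrelated enzyme for the same step as DGAT1, had 23 to 44 counts per library (log2 fold change 0.41, interval -0.20 to 1.01), and DGAT1 gave 96.2 to 97.9% of the summed TPM of the pair over the 6 libraries.

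Compared per transcript length, SLC25A1 and SCD had the highest mean levels of the 34 genes in both groups. SLC25A1 had 398 ± 9.4 TPM in overexpression libraries and 329.7 ± 25.1 TPM in empty vector libraries, SCD had 296 ± 5.78 TPM in overexpression libraries and 254 ± 20.6 TPM in empty vector libraries, and ACLY had 231 ± 6.87 TPM in overexpression libraries and 203 ± 6.15 TPM in empty vector libraries (SD, n = 3 each). TECR lay above ACLY in both groups, and TECR, ELOVL5 and FADS1 had empty vector means of 229, 207 and 193 TPM, and the empty vector libraries of ACLY, ELOVL5 and FADS1 overlapped one another, as did those of SCD and TECR. FASN had 149 ± 5.01 TPM in overexpression libraries and 128 ± 8.99 TPM in empty vector libraries, and SREBF1 99 ± 9.69 TPM in overexpression libraries and 85.7 ± 6.96 TPM in empty vector libraries (SD, n = 3 each). At the low end, FADS2, LPIN1 and ACSL1 were called at empty vector means of 22.9, 15.4 and 2.88 TPM. Summed over the 9 synthesis genes, levels ran from 989 to 1046 TPM in overexpression libraries and from 876 to 909 TPM in empty vector libraries, and over the 5 desaturation genes from 637 to 679 TPM with overexpression and from 566 to 632 TPM with empty vector. Neither of these sums overlapped between the groups. Both sums include the called genes of their role, so this separation adds no support beyond those calls. The sums overlapped for the other roles. For elongation they were 663 to 720.2 TPM with overexpression and 654 to 725 TPM with empty vector, for activation 82 to 86.7 TPM with overexpression and 80.2 to 94.8 TPM with empty vector, and for glycerolipid assembly 163 to 249 TPM with overexpression and 160.5 to 234 TPM with empty vector.

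**Figure D4:**
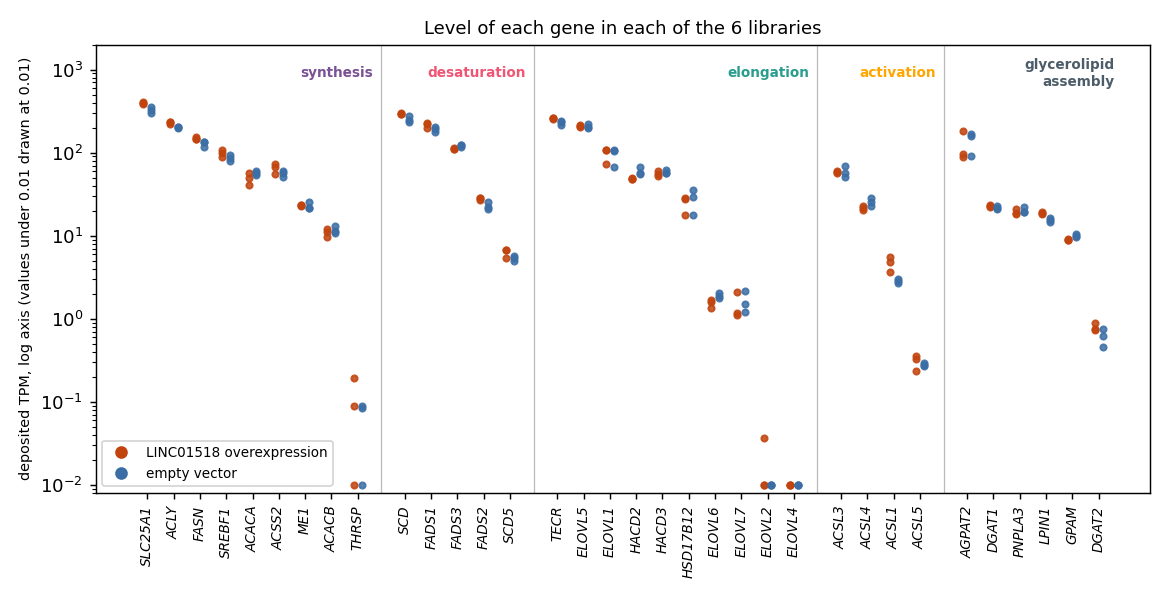
Deposited TPM (vertical log axis) of all 34 genes in each library by role, with overexpression points left of empty vector points and values under 0.01 drawn at 0.01. Levels span from SLC25A1 at 304 to 408 TPM over the 6 libraries down to ELOVL2 and ELOVL4, which were at or near 0.

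Other genes of the pathway were read from 7 further lists, and 5 of 87 tested were called higher and 2 lower, against 3.57% and 2.03% of all genes tested. By list, the counts higher and lower were 1 and 1 of 16 for the control of SREBP, ChREBP and LXR, 2 and 0 of 11 for acetyl-CoA and NADPH supply, 0 and 0 of 8 for mitochondrial fatty acid synthesis, 1 and 0 of 11 for further elongation and activation genes, 0 and 0 of 10 for further glycerolipid acyltransferases and lipins, 1 and 0 of 18 for phospholipid synthesis and 0 and 1 of 13 for lipid droplets. DESeq2 called 8 higher and 4 lower of the 87, against 9.72% of all genes in either direction, and 24 had an unadjusted p under 0.05 by edgeR, against 23.6%.

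PGD, a dehydrogenase of the pentose phosphate pathway that yields NADPH, was higher. It had 232, 249.6 and 231 CPM in overexpression libraries and 190.4, 198 and 199 CPM in empty vector libraries (log2 fold change 0.28, SE 0.0476, adjusted p = 0.020 by edgeR). Its groups did not overlap in CPM but did on the deposited TPM, at 309, 263 and 313 TPM with overexpression and 270.4, 275 and 269 TPM with empty vector (log2 fold change 0.11, adjusted p = 0.40 by limma-trend). SREBF2, the gene of the sterol-responsive SREBP-2, was higher at 324, 332 and 334 CPM with overexpression, against 279, 289.6 and 277 CPM with empty vector (log2 fold change 0.23, SE 0.0409, adjusted p = 0.0237 by edgeR). MLXIPL, the gene of the carbohydrate-responsive factor ChREBP, was lower at 17.5, 18.1 and 16.5 CPM with overexpression, against 22, 22.3 and 22.6 CPM with empty vector (log2 fold change -0.36, SE 0.0695, adjusted p = 0.0293 by edgeR). Among the called transcription factor genes, SREBF1 and SREBF2 were higher and MLXIPL lower. The other 14 tested genes in the list of SREBF2 and MLXIPL were not called. SREBF1, SREBF2 and MLXIPL each had no overlap between the groups in CPM. Such separation was seen for 15.9% (higher) and 15.5% (lower) of all genes tested.

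DBI, the acyl-CoA binding protein gene, had 91.7, 91.5 and 97.7 CPM in overexpression libraries and 81.1, 73 and 77.6 CPM in empty vector libraries (log2 fold change 0.28, SE 0.057, adjusted p = 0.0342 by edgeR). PTDSS2, a phosphatidylserine synthase gene, had 360.1, 373 and 355 CPM with overexpression and 236, 278 and 267 CPM with empty vector (log2 fold change 0.48, SE 0.0648, adjusted p = 0.00998 by edgeR). PLIN5, a lipid droplet coat protein gene, had 4.36, 5.62 and 4.08 CPM with overexpression and 6.83, 7.03 and 8.13 CPM with empty vector (log2 fold change -0.65, SE 0.148, adjusted p = 0.0462 by edgeR). DBI and PTDSS2 were higher and PLIN5 lower, without overlap. Of the 6 genes named here from these lists, only PTDSS2 was called in each fit without 1 library, with an adjusted p of at most 0.0387 by edgeR. The other 5 each lost the call in 4 to 6 of those fits, with adjusted p up to 0.0667 for PGD, 0.0996 for SREBF2, 0.107 for MLXIPL, 0.124 for DBI and 0.138 for PLIN5.

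Markers of other lipid-making cell types were read beside these results. Of 7 adipocyte genes, ADIPOQ and FABP4 were at 0 in all 6 libraries, and the summed level of the 7 was 389 to 445 CPM in overexpression libraries and 310.3 to 334 CPM in empty vector libraries. Most of that sum was LPL, lipoprotein lipase, at 355, 394 and 343 CPM with overexpression and 268, 292 and 269 CPM with empty vector (log2 fold change 0.40, SE 0.0639, adjusted p = 0.016 by edgeR). Of 7 hepatocyte genes, ALB, TTR and APOB were at 0 in all libraries, with sums of 0.712 to 1.64 CPM in overexpression libraries and 1.52 to 2 CPM in empty vector libraries. Of 5 macrophage genes, PTPRC, MARCO and LYZ were at 0, with sums of 2.62 to 3.58 CPM in overexpression libraries and 3 to 3.1 CPM in empty vector libraries. Whether LPL has any part in the results above was not tested. In RNA of a whole culture, fewer cells expressing a gene and less of its RNA per cell cannot be told apart.

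**Figure D5:**
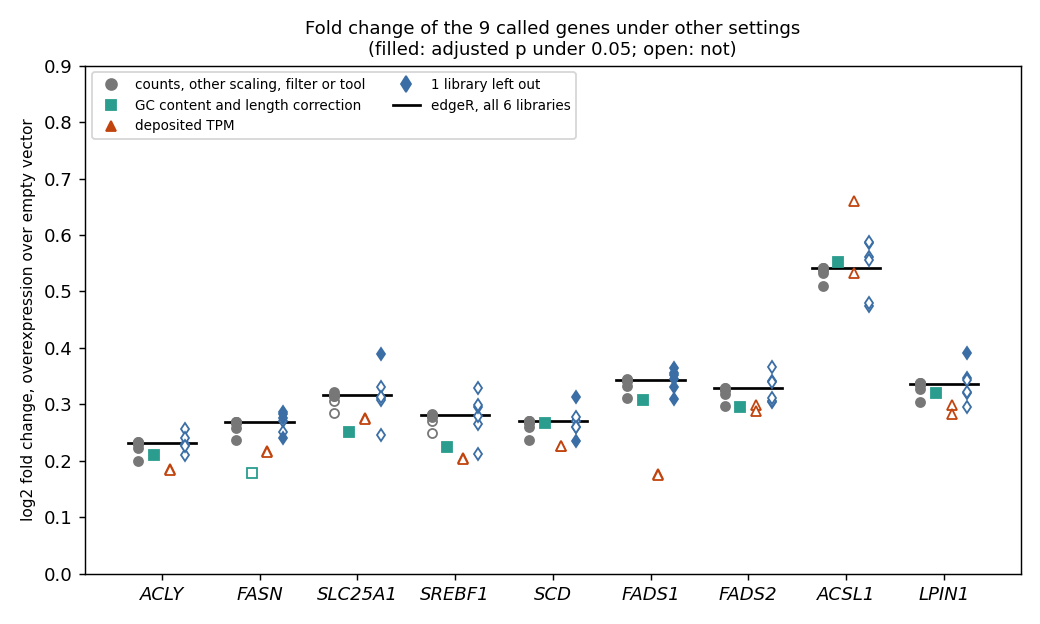
Log2 fold change (vertical axis, overexpression over empty vector) of the 9 called genes with all 6 libraries (bars) and under other settings (points, filled where the adjusted p is under 0.05). All points lie above 0, the TPM points are open for every gene, and FADS1 alone is filled in all 6 fits without 1 library.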

How the data were processed

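The authors deposited whole-number counts per gene and TPM per gene for 3 overexpression and 3 empty vector libraries. The tools named are Trimmomatic 0.36, HISAT2, featureCounts from Subread 1.5.1 and DESeq, with build GRCh38, per the submitters' processing notes. Whether counting used strand, which annotation was used and what made the TPM is not given in the sources used here.

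Counts were fitted in R 4.3.3 with edgeR 4.0.16 over all 6 libraries, with group as the only term. Genes were kept by filterByExpr (minimum count 10, minimum total 15), libraries were scaled by TMM, and the robust quasi-likelihood F test was adjusted by Benjamini-Hochberg over 13543 genes and called under 0.05. SE is the size of the log2 fold change divided by the square root of F, intervals are 95%, CPM are TMM-scaled, and each ± is an SD of 3 libraries. The fit was tested on simulated data, where edgeR called 0 of 50 genes changed by 1.2 times and 34 of 50 changed by 1.5 times. It called 36 of 50 at 2 times and 49 of 50 at 4 times. Of 13343 genes left unchanged, 10 were called. Sizes between 1.2 and 1.5 times were not simulated. In the deposited data, the called genes among those described here differed by 1.17 to 1.46 times. The rates depend on the genes drawn and on how many were changed, so they need not hold for these data. A gene without a call is not shown to be unchanged. Symbols came from a gene name table for 20148 genes and positions from GENCODE 29 for 20224.

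The 34 genes, the lists and the tests were chosen with earlier results of these data known. The rule for named genes gave values in every library to each of the 34 that was called or had a group mean of at least 10 TPM, and named up to 4 called genes of each of the 7 further lists, of which some are not reported here. Alternatives were other scalings, count filters, DESeq2 1.42.0, voom and trend fits of limma 3.58.1 (the trend fits on log2(TPM + 0.1), log2(TPM + 1) and with no filter), a correction for GC content and length, a replicate block and leaving out each library. Deviations of same-numbered libraries had correlations of -0.0095, 0.028 and 0.046, so the main fit did not pair replicates. These values cannot show that no culture or batch was shared. With 3 against 3 libraries an exact permutation test cannot go below 0.1, so none was run.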

Additional observations from a re-analysis of the deposited data

How the results depend on the processing

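All 9 called genes stayed above 0 under every alternative. With RLE scaling, no count filter, at least 50 counts in 3 libraries and limma-voom, 9 of the 34 genes were called higher, 8 when corrected for GC content and length, and with upper-quartile scaling and library size only 7. DESeq2 called 10 higher and 2 lower, 8 higher and 4 lower of the further pathway genes, and 784 higher and 532 lower of all genes. On the deposited TPM, limma-trend called 0 of the 34, and 2 higher and 0 lower of the further genes, with log2(TPM + 0.1), with log2(TPM + 1) and with no filter, and 103 higher and 122 lower, 100 higher and 119 lower, and 81 higher and 95 lower of all genes. Leaving out 1 library gave 1 to 5 of the 34 higher, 2 to 6 of the further genes higher and 0 to 1 lower, and 131 to 287 of all genes higher and 62 to 171 lower. The replicate block left 1 of the 34 higher, 2 of the further genes higher and 0 lower, and 154 higher and 78 lower of all genes. The block with the GC and length correction left 1, 2 and 0, and 151 and 87. The labels do not say whether same-numbered libraries shared a culture. What a call lost under the block means was therefore not tested.

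Signs changed only for genes that were not called. On the TPM, log2 fold changes were -0.24, -0.23 and -0.24 for ACACA, -0.11, -0.10 and -0.11 for ACACB and -0.0054, -0.0054 and -0.0054 for ACSL3 in the 3 fits. ACACB was at -0.0055 with upper-quartile scaling, -0.028 with library size only, -0.021 with the GC and length correction and -0.017 with the block added. HACD3 was at 0.039 with the correction and 0.038 with the block added. Without 1 library, ACACB ran from -0.068 to 0.087 (below 0 without overexpression replicate 2 or 3 or empty vector replicate 1 or 3), HACD3 from -0.053 to 0.017 (above 0 without overexpression replicate 2 or empty vector replicate 1), PNPLA3 from -0.076 to 0.023 (above 0 without overexpression replicate 1 or empty vector replicate 2), ELOVL1 from -0.068 to 0.26, HSD17B12 from -0.37 to 0.12 and AGPAT2 from -0.57 to 0.026. The glycerolipid assembly median was -0.025 with at least 50 counts in 3 libraries, a filter that leaves out DGAT2. The causes of the other changes were not tested. Depth limits THRSP, ELOVL2 and ELOVL4, whose changes were not detectable, and leaves wide intervals for ACSL5 and DGAT2.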

Other observations

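CS, citrate synthase, the mitochondrial source of the citrate that SLC25A1 exports, was named after its values were seen. It had 257, 258 and 102 CPM in overexpression libraries and 252, 254 and 274 CPM in empty vector libraries, so that overexpression replicate 3 stood apart from the other 5 libraries. INSIG1, which holds SREBP in the endoplasmic reticulum and was also named after its values were seen, had 57.3, 41.7 and 38.9 CPM in overexpression libraries and 35.6, 37.9 and 42.6 CPM in empty vector libraries, with overexpression replicate 1 the highest. Neither gene was called (adjusted p = 0.656 for CS and 0.387 for INSIG1 by edgeR).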
